A study of Phalacrocorax auritus with 15 samples.

Results

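In the liver of double-crested cormorant embryos, 84 of 16181 counted features took a large share of the RNA counts with solvent alone. Their mean level over all libraries exposed to ethinylestradiol (EE2), both doses together, stayed within 3-fold of that level. Abundance was measured in CPM, the count divided by the library's total and scaled to a total of 1000000. The level S is the mean CPM of solvent replicates 1, 3, 4 and 5, and the level E is the mean CPM of the 10 libraries from EE2-exposed embryos. Members have S of at least 1000 CPM and a ratio E/S above 0.333 and below 3. Of 106 features with S of at least 1000 CPM, 21 had a ratio at or below the lower bound and 1 a ratio at or above the upper bound. Members were chosen by S, E and their ratio, so every comparison of members with solvent is a description and carries no test. At the floor, the members nearest to it had S of 1013 and 1040.3 CPM, and the features just under it had 999.7 and 986.1 CPM. At the lower bound the nearest ratios were 0.337 and 0.338 inside, and 0.331 and 0.318 outside. At the upper bound the highest ratios inside were 1.84 and 1.75, and the ratio outside was 4.15.

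The double-crested cormorant is a fish-eating waterbird, and EE2 is the synthetic oestrogen of oral contraceptives. Solvent embryos received dimethyl sulfoxide, and the others EE2 at 3.33 µg/g egg (the lower dose) or 33.3 µg/g egg (the higher dose). These doses are nominal, and the labels give 2.3 and 31.9 µg/g egg as the actual ones. The solution went into the air cell in 50 µl before incubation, and left-lobe liver was taken from 5 samples per group. The sample labels give embryonic day 14, whereas the design text gives day 16 for this species; the labels name neither sex nor strain, and do not say that each sample is a separate egg.

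The liver of a bird embryo makes most of the proteins of the blood plasma, such as albumin, transferrin, fibrinogen and apolipoproteins, and handles the lipid that arrives from the yolk. A liver library is therefore led by a short list of very abundant transcripts, together with those for ribosomal proteins and translation factors that all growing cells need. Oestrogen acts on the bird liver through a nuclear receptor and is best known there for switching on the genes of yolk precursors, such as vitellogenin. The feature IDs of the table are not paired with gene names, so none of these roles can be given to a member, and the tissue label could not be checked against liver markers. Members are called here by their rank in S, where rank 1 is the member with the most CPM, and 4 are given by ID. Feature lengths are not known either, so a rank orders counts and not molecules.

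Library totals ranged from 11602455 to 19929889 counts. The lowest count of any member in any library was 118, in solvent replicate 2, and outside that library it was 4089. Solvent replicate 2, which the rule leaves out, stood apart from the other solvent libraries and is kept apart unless stated. Values of the 4 solvent libraries are in the order of replicates 1, 3, 4 and 5. All solvent columns carry one prefix and all exposed columns the other, so a batch that the prefix marks and EE2 exposure cannot be told apart.

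Together the members took on average 19.2% of the counts of an exposed liver and 27.9% of those of a solvent liver, solvent replicate 2 left out. Solvent replicates 1, 3, 4 and 5 held 29.1, 28.2, 25.2 and 28.9% of their counts in the members. The 5 libraries of the lower dose held 21.4, 21.1, 20.1, 17.6 and 15.5%, and those of the higher dose 20.0, 18.7, 18.0, 20.5 and 19.3%. The highest exposed library lay below the lowest of these 4 solvent libraries, and the ranges of the doses overlapped. The means were 27.9 ± 1.80% in the 4 solvent libraries, 19.1 ± 2.51% at the lower dose and 19.3 ± 0.999% at the higher dose (SD, n = 4, 5 and 5). Solvent replicate 2 held 15.7%, near the lowest exposed library, replicate 5 at 3.33 µg/g. In these bulk samples, fewer cells of a type and less RNA of a feature per cell cannot be told apart.

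Beside the members, the 21 features under the lower bound took 18.8 ± 1.60% in the 4 solvent libraries, 3.74 ± 1.78% at the lower dose and 3.23 ± 1.003% at the higher dose (SD, n = 4, 5 and 5). Features with S under 1000 CPM took 52.5 ± 3.41% in the 4 solvent libraries, 73.7 ± 5.22% at the lower dose and 73.9 ± 2.97% at the higher dose (SD, n = 4, 5 and 5). Solvent replicate 2 held 0.259% of its counts in the 21 features and 83.8% in those with S under 1000 CPM. Exposed libraries ran from 1.40 to 5.74% and from 69.3 to 81.9%, so it lay outside both ranges. Of the 104 features with E of at least 1000 CPM, 70 were members and 29 had S under 1000 CPM. The members made up most of the abundant features of both exposed and solvent livers, which follows in large part from the rule.

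The members did not hold their share evenly. By ratio, 45 had E/S under 0.8, 26 had E/S from 0.8 to under 1.25, and 13 had E/S of 1.25 or more; these bands were set after the values had been seen. The 45 lower members took 20.0 ± 1.89% in the 4 solvent libraries, 10.4 ± 2.60% at the lower dose and 10.4 ± 1.29% at the higher dose (SD, n = 4, 5 and 5). The 26 in the middle took 5.58 ± 0.314% in the 4 solvent libraries, 5.43 ± 0.147% at the lower dose and 5.37 ± 0.165% at the higher dose (SD, n = 4, 5 and 5). The 13 higher members took 2.32 ± 0.116% in the 4 solvent libraries, 3.34 ± 0.136% at the lower dose and 3.49 ± 0.197% at the higher dose (SD, n = 4, 5 and 5). The lower summed share of exposed livers thus came from the lower band. On the CPM scale the mean summed share of the middle band at each dose stayed within 1 solvent SD of its solvent mean. Single libraries ran lower, to 5.19% in replicate 4 at 3.33 µg/g and 5.15% in replicate 4 at 33.3 µg/g. Each band was cut on this same ratio, so these outcomes were largely set by the cut. Solvent replicate 2 held 8.32, 4.75 and 2.64% of its counts in the lower, middle and higher bands.

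**Figure D1:**
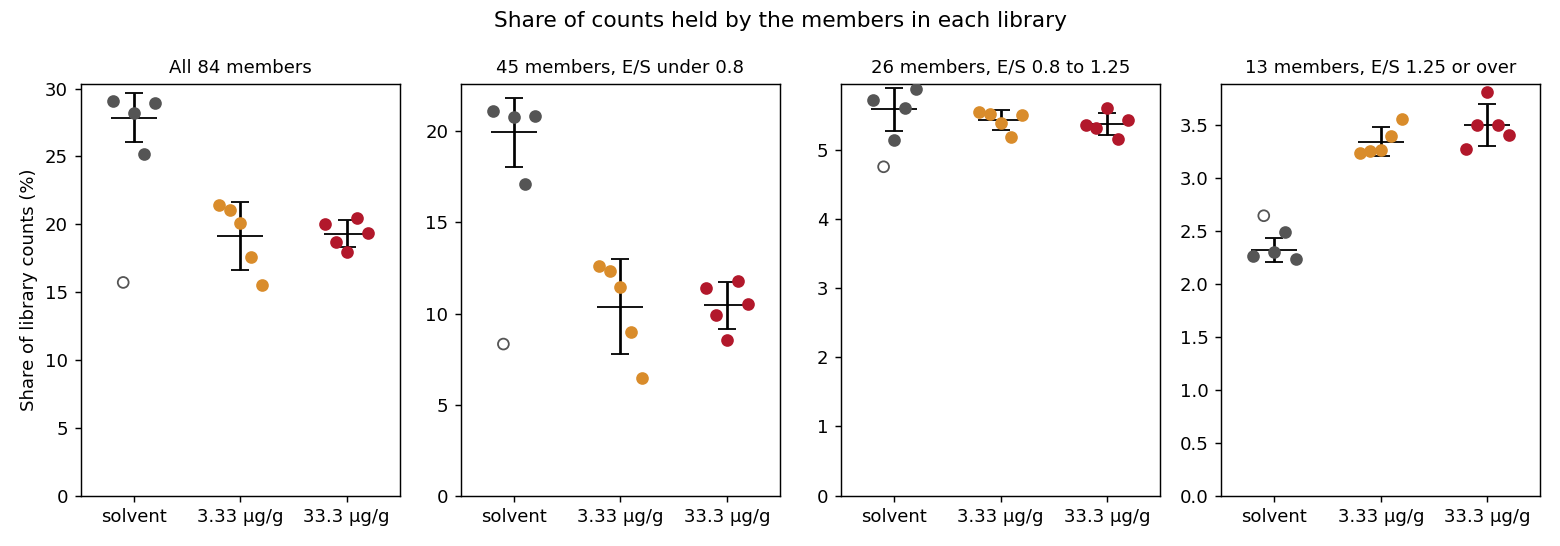
Share of library counts (%) held by all 84 members and by the bands of E/S, in solvent, 3.33 µg/g and 33.3 µg/g libraries. Points are libraries, the open point is solvent replicate 2, and bars give the mean ± SD of the filled points (n = 4 or 5). The lower band takes 10.4% at 33.3 µg/g and 20.0% in solvent, whereas the group means of the middle band run from 5.37 to 5.58%.

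Of the 10 members with the highest S, 9 were in the lower band and rank 2 in the middle one. All 10 had E below S on the CPM scale, and under median-of-ratios or TMM scaling as well. They held 10.1 ± 0.871% in the 4 solvent libraries, 5.73 ± 1.17% at the lower dose and 5.80 ± 0.550% at the higher dose (SD, n = 4, 5 and 5). The median S was 3214 CPM in the lower band, 1623 CPM in the middle and 1365 CPM in the higher band.

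The member of rank 1 measured 12558, 12432, 10666 and 10763 CPM in the 4 solvent libraries, then 7816, 6882, 7579.9, 5993 and 3089.8 CPM at the lower dose and 6619, 5019.6, 4006, 7259 and 6098 CPM at the higher dose. Every exposed library lay below the lowest of these solvent libraries, and the lowest was replicate 5 at 3.33 µg/g. Its ratio E/S was 0.520. The member of rank 2 was steadier on the CPM scale. It measured 11955, 9449, 10528 and 12459 CPM in the 4 solvent libraries, then 9611, 10419, 9487, 8866 and 10276 CPM at the lower dose and 9810.5, 10151, 10238, 10126 and 9909.5 CPM at the higher dose. On that scale the exposed and solvent libraries overlapped, and its ratio was 0.891. With TMM every exposed library lay below the 4 solvent libraries, and the ratio was 0.561. Solvent replicate 2 held 30.1 CPM of rank 1 but 10255 CPM of rank 2.

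The 2 members with the highest E/S were s2f_0000043024 and s2f_0000398005. The first, of rank 24, measured 3054, 2868, 4587 and 3407 CPM in the 4 solvent libraries, then 5106, 5213, 5270.3, 6066 and 8752 CPM at the lower dose and 5535, 6967, 9692, 5442 and 6070.3 CPM at the higher dose. All exposed libraries were above these 4, with the highest values in replicate 5 at 3.33 µg/g and replicate 3 at 33.3 µg/g. It averaged 3479 ± 772 CPM in the 4 solvent libraries, 6082 ± 1541 CPM at the lower dose and 6741 ± 1757 CPM at the higher dose (SD, n = 4, 5 and 5), an E/S of 1.84. Solvent replicate 2 held 7618 CPM, inside the range of exposed livers. The second, of rank 78, measured 1149, 1187, 1195 and 966 CPM in the 4 solvent libraries, then 2090.1, 2166, 2142, 2208 and 1459 CPM at the lower dose and 1794, 1934, 1705, 2317 and 1843 CPM at the higher dose. Its averages were 1124 ± 107 CPM in the 4 solvent libraries, 2013 ± 313 CPM at the lower dose and 1919 ± 237 CPM at the higher dose (SD, n = 4, 5 and 5), an E/S of 1.75. Its lowest exposed value was 1459 CPM, in replicate 5 at 3.33 µg/g, above the 1195 CPM of the highest of all 5 solvent libraries. With TMM scaling the ratios were 1.17 and 1.11, and for both members the exposed libraries overlapped the 4 solvent ones.

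The 2 members with the lowest E/S were s2f_0000052018 and s2f_0003553002. The first, of rank 38, measured 2454, 2411, 1961 and 2098 CPM in the 4 solvent libraries, then 946, 884, 1049, 750.3 and 395 CPM at the lower dose and 840.0, 583, 489, 846 and 733 CPM at the higher dose. Its means were 2231 ± 240.0 CPM in the 4 solvent libraries, 805 ± 254 CPM at the lower dose and 698 ± 158 CPM at the higher dose (SD, n = 4, 5 and 5). All exposed libraries were below the 4 solvent ones, and the doses overlapped. The second, of rank 71, measured 1206, 1328, 879 and 1388 CPM in the 4 solvent libraries, then 707, 420.4, 371, 433 and 282 CPM at the lower dose and 456, 312, 282, 409 and 381 CPM at the higher dose. Again all exposed libraries were below these solvent ones. The means of rank 71 were 1200.0 ± 227 CPM in the 4 solvent libraries, 442 ± 159 CPM at the lower dose and 368 ± 71.1 CPM at the higher dose (SD, n = 4, 5 and 5). Their ratios were 0.337 and 0.338 on the CPM scale, and 0.215 and 0.214 with TMM. Solvent replicate 2 held 10.2 CPM of the first and 97.0 CPM of the second, below every exposed library.

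How far the members were kept depended on the scale. On CPM, 64 of 84 members had E below S, beside 14.4% of the 13014 features that passed the low-count filter over all libraries. With TMM, which assumes that most features do not change, 81 did, beside 42.8%. The median E/S of members was 0.743 on CPM, where the median of all filtered features was 1.69. With TMM it was 0.475, where that of all features was 1.07. Of the 20 members with E above S on CPM, 17 had E below S with TMM and with median-of-ratios scaling. With TMM, 22 of the 84 were at or under the lower bound. On CPM, 3 members were at or under it by the mean at 33.3 µg/g alone, and 3 by the mean at 3.33 µg/g alone. The lowest ratios by dose were 0.307 and 0.313, in the same order. The TMM factors were 0.708 ± 0.102 in the 4 solvent libraries, 1.11 ± 0.149 at the lower dose and 1.12 ± 0.0828 at the higher dose (SD, n = 4, 5 and 5). All exposed libraries lay below the 4 solvent libraries for 28 members and above them for 7 on CPM, beside 4.8% and 41.4% of filtered features. With TMM these counts were 64 and 0, beside 13.8% and 11.4%. The rule used this contrast, so nothing is read from these counts.

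**Figure D2:**
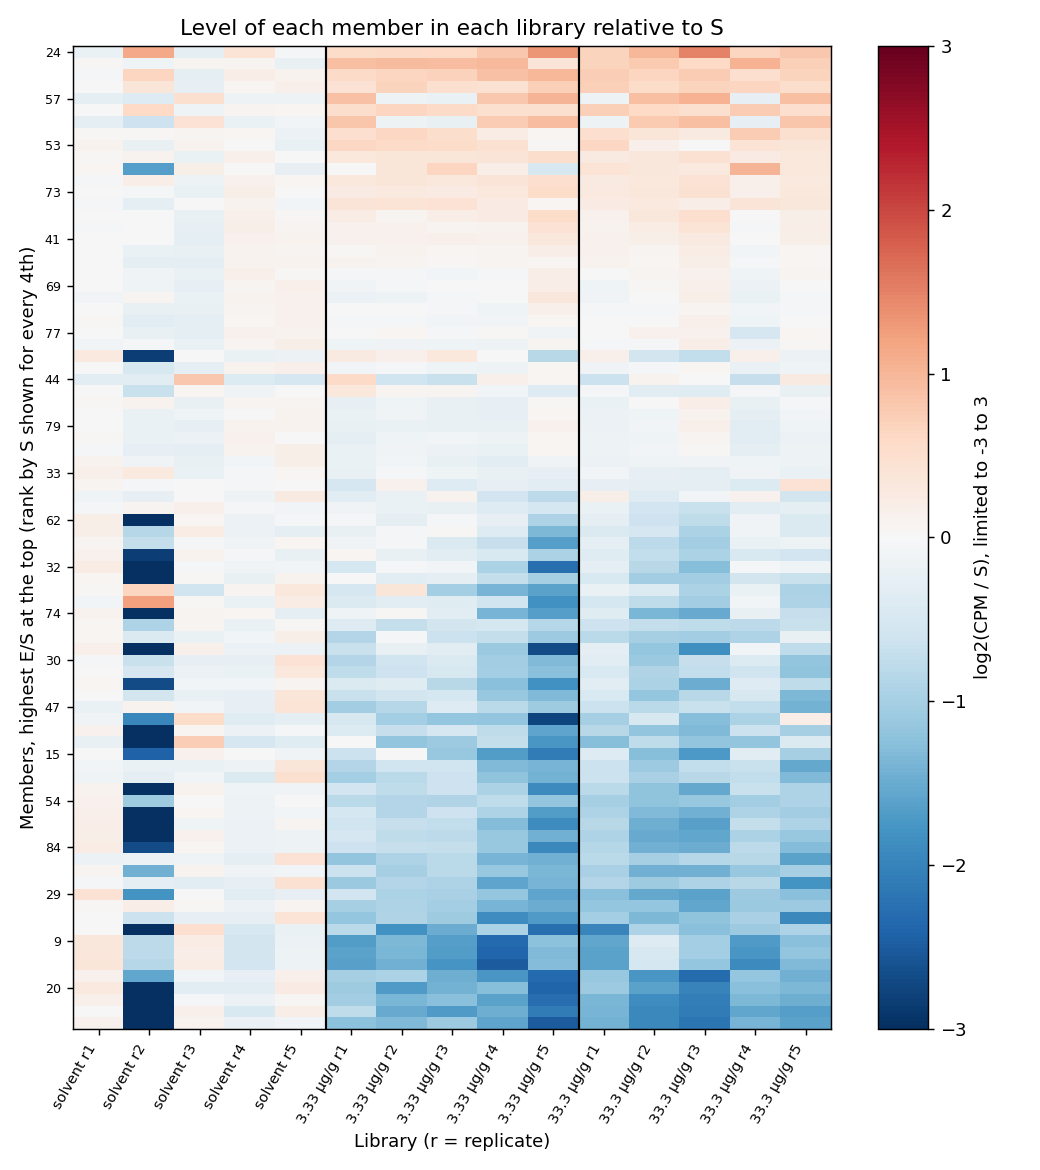
Level of each member (rows, highest E/S at the top) in each library (columns), as log2 of CPM over S, limited to 3 on either side of 0. Red is above and blue below S; the pale rows in the middle are the 26 members of the middle band, and the column of solvent replicate 2 has dark blue cells, among them the 13 members under 0.1 of S.

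Most members stayed among the most abundant features in exposed livers, an outcome that the floor on S and the lower bound on E/S favour. Of the 106 features with the highest CPM in each library, 82, 80, 79 and 79 were members in the 4 solvent libraries, then 70, 70, 69, 69 and 62 at the lower dose and 69, 70, 67, 68 and 71 at the higher dose. In solvent replicate 2 there were 60. The lowest member had a rank among all features of 121, 129, 123 and 119 in these solvent libraries, then 204, 309, 346, 304 and 582 at the lower dose and 287, 418, 483, 301 and 331 at the higher dose. In solvent replicate 2 it was at rank 10091. The member of rank 2 in S was the highest member in 9 of the 10 exposed libraries and in solvent replicate 2, where it was the most abundant of all features. The exception was replicate 1 at 3.33 µg/g, where rank 5 measured 9634 CPM and rank 2 measured 9611 CPM. In solvent the highest member was rank 1 in replicates 1, 3 and 4 and rank 8 in replicate 5.

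Across the 84 members, Spearman's rho of CPM between pairs of libraries was 0.889 to 0.962 among the 4 solvent libraries, 0.704 to 0.971 within the lower dose and 0.795 to 0.975 within the higher dose. It was 0.665 to 0.982 between the doses, and 0.417 to 0.885 between an exposed library and one of those 4. The median over pairs was 0.744 between exposed and solvent libraries, 0.948 among the 4 solvent libraries, 0.869 within the lower dose and 0.872 within the higher dose. The order of members was thus less alike between exposed and solvent livers in the median, although the ranges overlap. The lowest of the values with solvent came from replicate 5 at 3.33 µg/g, whose rho with the order of S was 0.494, against 0.647 for replicate 3 at 33.3 µg/g and at least 0.661 in the other exposed libraries. Solvent replicate 2 had rho of 0.210 to 0.363 with the other solvent libraries and 0.315 to 0.605 with exposed ones. Members are not independent of each other, and these values describe the libraries.

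**Figure D3:**
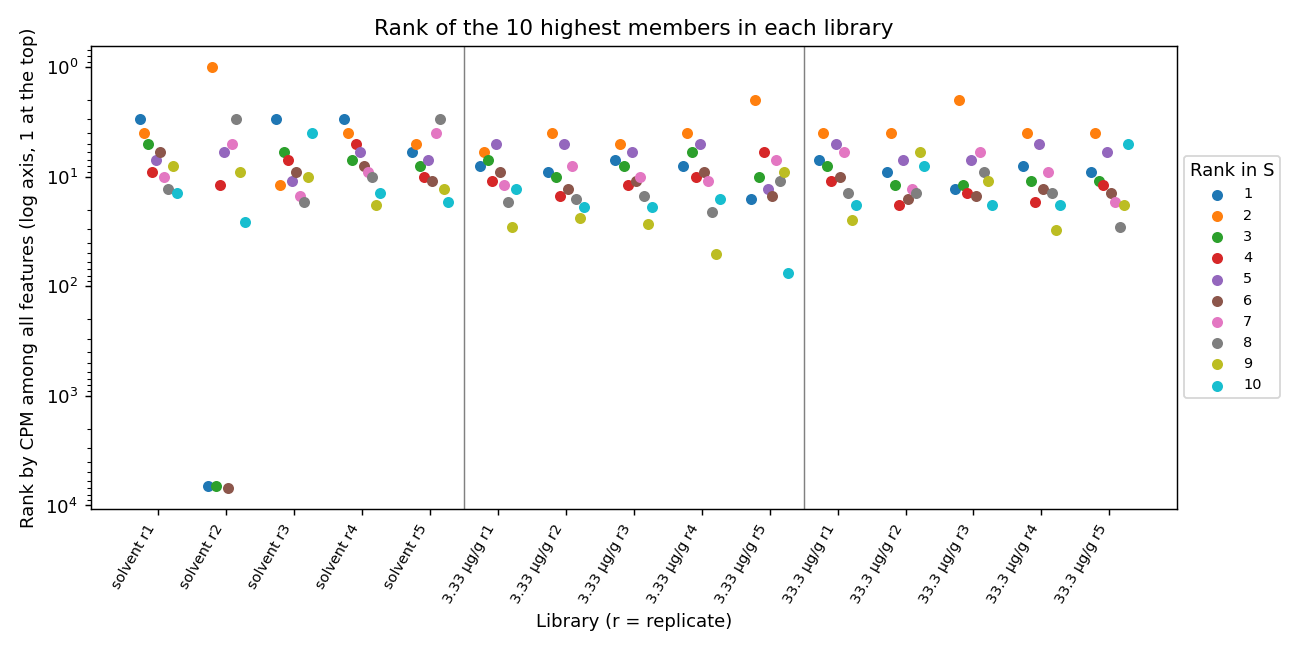
Rank by CPM among all features, on a log axis with rank 1 at the top, of the 10 members highest in S in each library. Colours mark the member's rank in S; in solvent replicate 2 the members of ranks 1, 3 and 6 drop to ranks 6697, 6687.5 and 6895.5, whereas rank 2 is first.

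Whether members stood at another level at the higher dose than at the lower one is a question that their choice did not use. No member passed an adjusted p under 0.05 between 33.3 and 3.33 µg/g in the edgeR quasi-likelihood test, fitted to the 10 exposed libraries over 12717 features. Of all features 1 passed (0.00786%). Before adjustment, 0 of 84 members had a p under 0.05, beside 6.64% of all features, and the lowest p of a member was 0.0910. DESeq2 and limma-voom also called 0 members after adjustment, where they called 38 (0.299%) and 0 of all features. Before adjustment they had 1 and 0 members at a p under 0.05, beside 8.43% and 6.04% of all features. The groups overlapped for all 84 members, beside 0.527% of features that were higher without overlap at 33.3 µg/g and 0.912% that were lower. The median log2 difference, 33.3 minus 3.33 µg/g, was -0.03 over members and 0.00221 over all features. Fits of all 15 libraries, of 14 without solvent replicate 2, and with the replicate number as a block had 0, 0 and 3 members at an unadjusted p under 0.05, beside 3.68%, 7.28% and 4.44% of all features. In the fit of 10 libraries the difference was below 0 for 53 members, beside 49.5% of all features, and for 47 with scaling by library size alone.

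With TMM scaling the median standard error was larger for members than over all features, and with library size alone it was not. Standard errors of members ran from 0.0731 to 0.504 on the log2 scale with TMM. Their median was 0.240, beside 0.163 over all features, and with library size alone the medians were 0.177 and 0.184. The 95% interval with TMM lay within 2-fold for 76 of 84 members, beside 81.4% of all features. It lay within 1.5-fold for 38, beside 58.3% of all features. The share was higher among members for 2-fold and lower for 1.5-fold. With library size alone the interval lay within 2-fold for 79 members, beside 79.7% of all features. In the fit of all 15 libraries it lay within 2-fold for 54 members, beside 75.01% of all features. For rank 2 it ran from -0.24 to 0.30, and for rank 1 from -0.86 to 0.56. The highest fitted difference was that of rank 10, 0.48 (SE 0.439, edgeR adjusted p = 0.896). It measured 4226, 6014, 3431, 4312 and 9600.1 CPM at 33.3 µg/g, against 6020.4, 4138, 3769, 3688 and 1243 CPM at 3.33 µg/g. Replicate 5 was the highest library at 33.3 µg/g and the lowest at 3.33 µg/g. The members of ranks 9, 17 and 34 followed with 0.47, 0.45 and 0.42. Rank 9 measured 2953, 6721, 4312, 2704 and 3677 CPM at 33.3 µg/g, against 2742, 3399.9, 2776, 1730 and 3711 CPM at 3.33 µg/g, and replicate 2 at 33.3 µg/g was the highest. The lowest difference was that of rank 29, -0.36 (SE 0.251, edgeR adjusted p = 0.831).

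Single libraries moved the balance of directions both ways. Without replicate 5 at 3.33 µg/g the median log2 difference of members was -0.13 and 70 of 84 were below 0, beside 48.1% of all features. Without replicate 1 at 3.33 µg/g the median was 0.02 and 37 were below 0, beside 48.5% of all features. Without replicate 5 at 3.33 µg/g, 7 members with an unadjusted p under 0.05 were lower at 33.3 µg/g and 0 higher, beside 6.66% of all features lower and 15.7% in either direction. None of the 84 passed after adjustment in that fit, where the lowest adjusted p was 0.297.

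**Figure D4:**
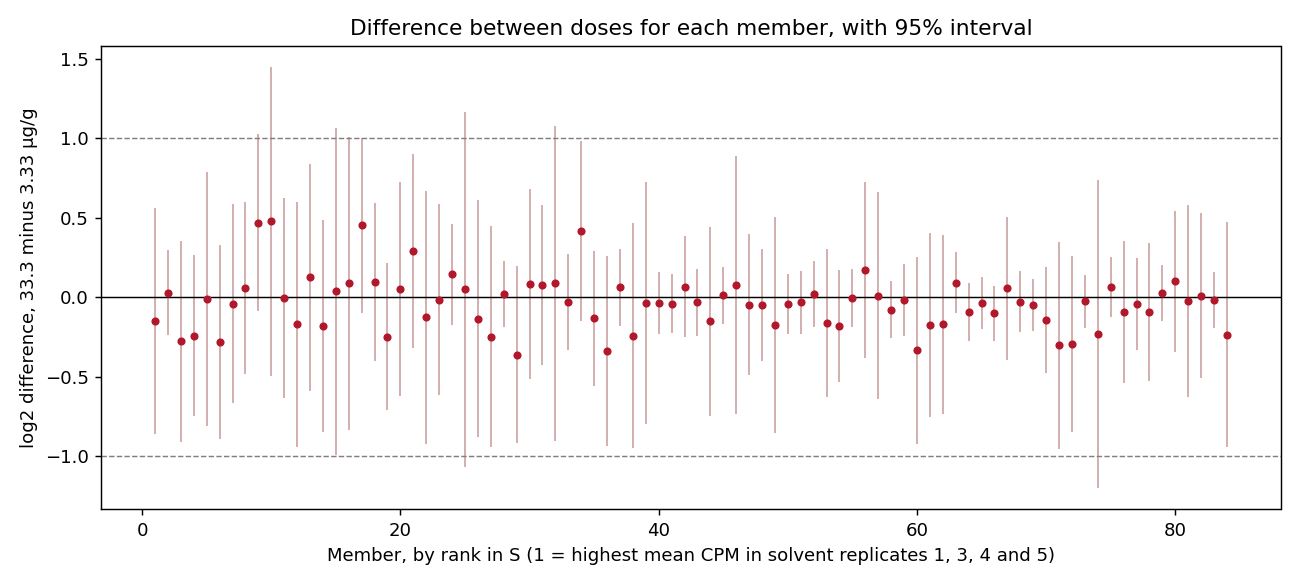
Fitted log2 difference between 33.3 and 3.33 µg/g for each member in the order of its rank in S, with 95% intervals (edgeR, 10 exposed libraries). Dashed lines mark 2-fold; every interval includes 0, and 76 of 84 lie between the dashed lines.

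On the CPM scale the members varied more among exposed livers than among the 4 solvent ones. The median coefficient of variation was 11.7% in solvent, 22.0% at the lower dose and 18.6% at the higher dose. Over all 13014 filtered features it was 18.8, 23.2 and 17.02%, and over the 22 other features with S of at least 1000 CPM it was 12.8, 41.1 and 31.4%, in the same order. With solvent replicate 2 the solvent value of members was 24.8%. Without replicate 5 at 3.33 µg/g the value of members at that dose was 13.5%. With TMM scaling the value of members was 29.0% at 3.33 µg/g and 22.6% at 33.3 µg/g, against 19.8% in the 4 solvent libraries.

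On the CPM scale the bands differed in this as well. In the lower band the median coefficient of variation was 12.7% in the 4 solvent libraries, 27.6% at the lower dose and 23.3% at the higher dose. In the middle band it was 10.98, 8.56 and 9.74%, and in the higher band 10.2, 14.9 and 12.4%. On that scale the steadiest members were rank 80 in solvent (3.89%), rank 59 at the lower dose (1.68%) and rank 2 at the higher dose (1.78%). The TMM factors ran from 0.984 to 1.35 at the lower dose and from 1.02 to 1.21 at the higher dose. These values of single members therefore hold for CPM alone. The most variable members on CPM were rank 44 in solvent (50.2%), rank 16 at the lower dose (60.8%) and rank 10 at the higher dose (44.8%). In the lower band, replicate 5 was the lowest library at 3.33 µg/g for 40 of 45 members, and replicate 3 the lowest at 33.3 µg/g for 27. In the middle band these libraries were the highest of their group for 16 and 18 of 26 members. Features with S under 1000 CPM took 81.9 and 77.7% of counts in these libraries, the highest of each dose. Shares over all features are not given beside these counts, so they are not read as particular to the members.

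**Figure D5:**
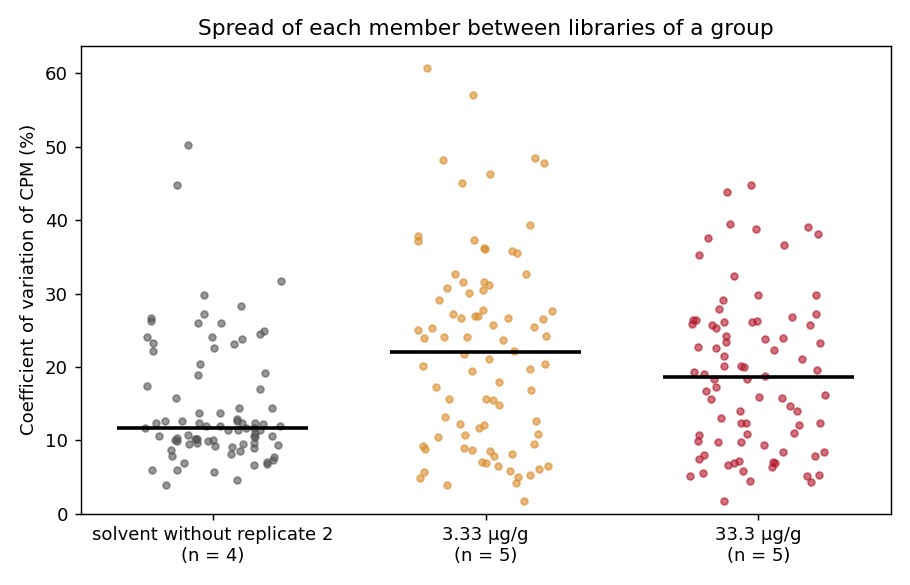
Coefficient of variation of CPM (%) of each of the 84 members within solvent without replicate 2, 3.33 µg/g and 33.3 µg/g libraries; points are members and lines are medians. The medians are 11.7, 22.0 and 18.6%, from left to right.

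Among solvent libraries, the members held the smallest share in solvent replicate 2. Their choice required a high mean in the other 4, which favours a lower level in the library left out. The filtered features set beside them were not chosen by S. On the CPM scale, 50 of the 84 members were lower in solvent replicate 2 than in the other 4 solvent libraries, 24 were within their range and 10 above. Among all filtered features 10.2% were below and 79.2% above. Among abundant features the low level was not particular to the members. Features with S of at least 1000 CPM and E/S at or below the lower bound took 0.259% of counts in solvent replicate 2. In the other 4 solvent libraries they took 16.5 to 20.0%. Members took 15.7% in solvent replicate 2, against 25.2 to 29.1% in the other 4. The ratio of this library to S had a median of 0.779 over members, from 0.00258 to 2.33, and a median of 2.01 over all filtered features. In the lower, middle and higher bands the median ratio was 0.342, 0.867 and 1.03. All these ratios are on CPM. The TMM factor of this library was 1.40, against 0.632, 0.646, 0.854 and 0.700 in replicates 1, 3, 4 and 5, so with TMM its ratios to S are lower. One library against 4 allows no exact two-sided p under 0.05, so no p is given. Dixon's test for a stray library is given under the results flagged for a closer look. It met the same choice of members and is read as a description.

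Some members were nearly absent from solvent replicate 2. The 13 with under 0.1 of S, those of ranks 1, 3, 6, 13, 14, 20, 25, 26, 32, 36, 38, 60 and 71, held 0.0963% of its counts together, against 7.23, 6.94, 5.72 and 6.39% in solvent replicates 1, 3, 4 and 5. They were all in the lower band. At 3.33 µg/g they held 4.28, 3.64, 3.98, 3.22 and 1.77% of counts, and at 33.3 µg/g 3.47, 2.71, 2.27, 3.82 and 3.32%. Every exposed library lay above the level of solvent replicate 2 and below that of the 4 others. All 13 were lowest in replicate 5 among libraries at 3.33 µg/g, and 12 were lowest in replicate 3 among those at 33.3 µg/g. These members were picked for their value in solvent replicate 2 after it had been seen. Shares over all features are not given beside these counts, so they are not read as particular to the members. In the opposite direction on the CPM scale, that library held 5156 CPM of rank 39, against 2093, 2255, 1918 and 2571 CPM in replicates 1, 3, 4 and 5. It held 9193 CPM of rank 16, against 6022, 3875, 6215 and 7303 CPM. The ratios of that library to S were 2.33 for rank 39 and 1.57 for rank 16 on CPM. With TMM they were 1.16 and 0.790, so rank 16 was then below S.

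Members with similar IDs kept their proportions more closely in some sets than in others. The IDs of 10 members share their first 7 digits with another member, in 4 sets; whether such features are related sequences that share reads is not given in the sources used here, so these members are uncertain as separate genes. The set of ranks 1, 3 and 6 held 30.1, 30.2 and 28.5 CPM in solvent replicate 2 and had E/S of 0.520, 0.553 and 0.504. In the 14 other libraries the CPM of rank 1 was 0.852 to 1.13 times that of rank 3 and 0.974 to 1.37 times that of rank 6. In the set of ranks 9, 17 and 34, the CPM of rank 9 was 1.59 to 1.79 times that of rank 17 in 14 libraries, and 1.67 times in solvent replicate 2. Their E/S was 0.398, 0.390 and 0.371. The pair of ranks 15 and 16 did not keep a ratio: rank 15 had 0.568 to 1.69 times the CPM of rank 16, and 0.122 times in solvent replicate 2. The pair of ranks 54 and 76, with E/S of 0.510 and 0.442, did not keep one either: rank 54 had 1.28 to 2.11 times the CPM of rank 76 in 14 libraries and 0.565 times in solvent replicate 2.

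The members of ranks 44, 57 and 81, whose IDs share no such digits, lay at a pair of levels in exposed livers on the CPM scale. This pattern was found after their values had been seen, and it was not examined with TMM scaling. Rank 57 measured 1170.3, 1979, 1279 and 1289 CPM in the 4 solvent libraries, then 2612, 1294, 1241, 2514 and 2914 CPM at the lower dose and 1296, 2679, 2945, 1202 and 2657 CPM at the higher dose. Replicates 2 and 3 at 3.33 µg/g and 1 and 4 at 33.3 µg/g formed the low level, and no exposed library lay between 1296 and 2514 CPM. The same 4 libraries were low for rank 81, at 919 to 971 CPM, with the other 6 at 1841 to 2052 CPM. For rank 44 they were at 1151 to 1232 CPM, with the other 6 at 1868 to 2763 CPM. In solvent, replicate 3 was the highest of the 5 libraries for all 3 members, at 3255, 1979 and 1461 CPM of ranks 44, 57 and 81. A step of at least 1.5-fold between neighbouring exposed values, with at least 2 libraries on each side, was found in 5 members. It was found in 13.1% of filtered features, so such a step was not more frequent among members. The other members with such a step were ranks 25 and 74. Their low libraries were among replicates 4 and 5 at 3.33 µg/g and replicates 2 and 3 at 33.3 µg/g.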

How the data were processed

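The deposited table, made by the authors, holds whole-number counts per feature, taken as raw counts because library totals differ. The counting tool, the reference, the strand setting and how shared reads were treated were not given in the sources used here. Columns were matched to samples by name and by the dose class in the file header: medium was read as 3.33 and high as 33.3 µg per g egg, and the final digit as the replicate. No header states this match in words, and 0 columns were left out. No pair of libraries of a group agreed within sampling noise (over 30 pairs, chi-square divided by its degrees of freedom was at least 16.4). P-values measure the spread between samples that may not be separate eggs.

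CPM is the count over the column total. The doses were compared with the edgeR quasi-likelihood F-test (TMM, default filter by expression with a minimum count of 10, Benjamini-Hochberg adjustment over all 12717 features tested, two-sided) in the 10 exposed libraries. Solvent libraries were left out of this fit because solvent replicate 2 widens the common spread. The standard error was the absolute log2 fold change over the square root of F. The tools were DESeq2 1.42.0, limma 3.58.1 and edgeR 4.0.16, under R 4.3.3. IDs printed are the 2 members with the highest and the 2 with the lowest E/S. The members, bands and tests were chosen with earlier results of these data known. Alternatives were other scalings, filters, tools, bounds and sets of libraries. Intervals cover the spread between libraries and not errors of counting shared reads.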

Additional observations from a re-analysis of the deposited data

Results flagged for a closer look

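Dixon's test (critical value 0.71) was applied to 51 sets of 5 libraries and singled out a library in 10. Chance singles out a library in about 1 of 20 sets only where sets are not chosen by their values. These members were chosen by a high mean in solvent replicates 1, 3, 4 and 5, which favours a low value in solvent replicate 2. Some were also picked by their level S or their E/S, and the values of one library are not independent. The 10 flags are therefore not read against that rate. In solvent replicate 2 the summed share of members was 15.7%, against 25.2 to 29.1% in the other solvent libraries. The members of ranks 1, 3 and 6 held 30.1, 30.2 and 28.5 CPM there, against 10666 to 12558, 9547 to 11827 and 9009.7 to 11174 CPM. The members of ranks 4 and 5 held 3857 and 6320.0 CPM, against 9755 to 11132 and 9709 to 11062 CPM, and s2f_0000052018 held 10.2 CPM, against 1961 to 2454 CPM. In solvent replicate 5 the member of rank 8 stood at 12950.1 CPM, against 7573 to 9028 CPM in the other solvent libraries. Replicate 5 at 3.33 µg/g held 8752 CPM of s2f_0000043024, against 5106 to 6066 CPM in the others at that dose, and 1459 CPM of s2f_0000398005, against 2090.1 to 2208 CPM. Over all 84 members and 3 groups, 45 of 252 groups were outside this limit. Of these, 21 were set by solvent replicate 2 and 10 by replicate 5 at 3.33 µg/g. The share of all features outside this limit is not given here, so these counts are not read as particular to the members. Solvent replicate 2 lay below the other 4 solvent libraries for 10.2% of filtered features and above them for 79.2%.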

How the results depend on the processing

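The bounds of the rule set the number of members: a floor of 500 CPM gave 199 and one of 2000 CPM gave 42. The summed shares in the 4 solvent libraries, at the lower and at the higher dose were then 35.9, 27.7 and 27.6% with 500 CPM, 22.1, 13.6 and 13.9% with 2000 CPM and 19.7, 15.7 and 15.8% with ratios from 0.5 to 2 (66 members). With solvent replicate 2 in S there were 87 members, 80 of them in common with the 84, and the shares were 30.7, 20.4 and 20.4%. The rule applied to TMM-scaled CPM gave 111 members, 62 in common. Leaving out a library of the rule and choosing again gave 81 to 86 members. The next values keep the 84 members fixed and leave a library out of the averages alone. Shares were then 27.4 to 28.7% in solvent, 18.6 to 20.0% at the lower dose and 19.0 to 19.6% at the higher dose. The median E/S was 0.724 to 0.785, and 58 to 65 members had E below S. The median E/S was 0.475 with TMM and 0.462 with median-of-ratios scaling. On average over the 4 solvent libraries, 92.0% of the 84 members were among the 100 highest features of the library, and 95.2% among the 106 highest.

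Between doses DESeq2 called 38 features (0.299%), and limma-voom, the fit of all 15 libraries, the fit without solvent replicate 2 and the replicate block each called 0, against 1 in the edgeR fit; leaving out a library gave 0 or 1. Every alternative called 0 members. The replicate numbers gave no clear sign of paired samples, which does not show that the samples were unpaired. Correlations of deviations for own numbers ran from -0.424 to 0.436, and 2 of 5 libraries at 33.3 µg/g correlated best with their own number. In the edgeR fit with the replicate block, 3 members were at an unadjusted p under 0.05, beside 4.44% of all features. The median log2 difference of members in that fit was -0.03. Leaving out a library gave a median log2 difference of -0.13 to 0.02 and 0 to 7 members at that p. With TMM the median coefficient of variation was 29.0% at 3.33 µg/g, 22.6% at 33.3 µg/g and 19.8% in solvent. On CPM, leaving out a library gave 9.41 to 12.8% in solvent, 13.5 to 24.1% at the lower dose and 15.3 to 19.0% at the higher dose. Why these values moved was not tested beyond each setting's own construction. The lowest count of a member, 118, has a counting error of 9.21%, and no alternative varied the depth.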

Other observations

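Single solvent livers other than replicate 2 also led small groups of members, found after the values had been seen. Replicate 5 was over 1.3 times the next of the 4 solvent libraries for the members of ranks 8, 11, 18, 23, 30, 31 and 47, all of them in the lower band. For rank 8 it measured 12950.1 CPM and the next library 9028 CPM, and for rank 11 10178 and 7598 CPM. Replicate 3 led in the same way for ranks 10, 12, 13, 44, 57 and 81. For rank 12 it measured 11263 CPM and the next library 5749 CPM. Replicate 4 was the lowest of the 4 for 34 of 45 members of the lower band. Replicate 3 was the lowest for 20 of 26 members of the middle band. Shares over all features are not given beside these counts.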
